A study of Mus musculus with 42 samples.

Results

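The genes described here are 32 genes of cholesterol and fatty acid synthesis among the 26811 genes counted in 42 MC38 tumors. They were taken as a list of gene symbols by pathway, 21 in a sterol branch and 11 in a fatty acid branch, and the list was chosen by hand with earlier results of these tumors in view. The earlier result that held a member by name was that of Fdft1 in aPD1 + aGMCSF + aIL2RB against aPD1 + aGMCSF tumors, and its value there is given as a description only. All 32 members passed the filter on low counts, which 16932 genes passed.

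Cells make cholesterol from acetyl-CoA through mevalonate, farnesyl pyrophosphate, squalene and lanosterol. Fatty acids are built from the same acetyl-CoA by Acaca and Fasn and are then elongated and desaturated. The transcription factor SREBP-2, encoded by Srebf2, drives the sterol genes when membrane cholesterol is low. SREBP-1, encoded by Srebf1, drives mainly the fatty acid genes. Insig1 holds both factors in the endoplasmic reticulum when sterols are plentiful, and the oxysterol receptors of the LXR family turn on cholesterol export. Tumor cells and activated immune cells use both routes to build membranes, whereas lipid-loaded macrophages export cholesterol.

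MC38, a colon carcinoma line of C57BL/6J origin, was grown under the skin of female mice of the CC75xB6 cross (CC075/UncJ by C57BL/6J), so all tumors share the line and the host strain. Control mice got isotype antibodies alone (5 tumors, named isotype here). The others got aPD1 by itself (6 tumors), with aGMCSF (9 tumors), with aIL2RB (11 tumors) or with both (aPD1 + aGMCSF + aIL2RB, 11 tumors). aPD1 blocks the checkpoint receptor PD-1, aGMCSF the myeloid growth factor GM-CSF, and aIL2RB the receptor subunit shared by IL-2 and IL-15. Mice aged 8-12 weeks received aGMCSF (100 µg), aIL2RB (200 µg) or matched isotypes every 3 days until the tumor reached 75 to 110 mm3 and then 1 dose of aPD1 or its isotype (200 µg), and the tumors were taken 48 h later. The comparisons asked how these genes stood after aPD1 and whether either blockade moved them.

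The shallowest library was aPD1 + aGMCSF + aIL2RB replicate 4 with 7155486 counts, and the other 41 held 15109228 to 24101674. The labels call the tumors biological replicates, and p-values measure the spread between them. The tumors mostly part along their replicate numbers into 2 sets of 22 and 20 that no label names, with isotype 1-2, aPD1 1-3, aPD1 + aGMCSF 1-5 and replicates 1-6 of both groups given aIL2RB in the first. On the first principal component of deviations from group means, the first set was mostly negative and the second mostly positive. The exceptions were aPD1 2 (18.49), aPD1 3 (1.73), aPD1 6 (-11.05), aPD1 + aIL2RB 2 (10.13) and aPD1 + aIL2RB 9 (-1.187), so the aPD1 tumors were mixed. T and NK cell markers checked the aIL2RB label, and 8 of 8 were lower than isotype in aPD1 + aIL2RB (1.51% of all genes were) and 6 of 8 in aPD1 + aGMCSF + aIL2RB tumors (4.51%). Their summed level was 58.5 to 72.7 CPM (counts scaled to a common library total with TMM factors) in isotype tumors, with medians of 9.73 in aPD1 + aIL2RB and 12.4 in aPD1 + aGMCSF + aIL2RB tumors, but aPD1 + aGMCSF + aIL2RB replicate 1 held 98.2. The epithelial markers Krt8, Krt18, Krt19 and Epcam had medians of 0.324 to 0.554 CPM, so the tumors carried little epithelial RNA of this kind.

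By group means both branches stood higher in isotype and aPD1 + aGMCSF tumors than in the other 3 groups, with wide overlap between tumors. By medians this did not hold for the fatty acid branch in isotype tumors. A branch score was set for each tumor as the mean over its genes of log2 CPM standardized across the 42 tumors, in SD units. The mean sterol score was 0.89 ± 0.85 (SD, n = 5) in isotype, -0.37 ± 0.90 (n = 6) in aPD1, 0.56 ± 0.32 (n = 9) in aPD1 + aGMCSF, -0.25 ± 0.65 (n = 11) in aPD1 + aIL2RB and -0.41 ± 0.42 (n = 11) in aPD1 + aGMCSF + aIL2RB tumors. The mean fatty acid score followed the same order of signs, at 0.42 ± 1.11, -0.28 ± 0.76, 0.51 ± 0.58, -0.21 ± 0.63 and -0.24 ± 0.62. The medians of the fatty acid score were -0.08 in isotype, -0.35 in aPD1 and 0.71 in aPD1 + aGMCSF tumors. They were -0.0017 in aPD1 + aIL2RB and -0.03 in aPD1 + aGMCSF + aIL2RB tumors. The isotype mean of this score rests on replicate 1, at 2.19. Without that tumor the difference from isotype went from -0.71 to -0.27 for aPD1, from -0.64 to -0.20 for aPD1 + aIL2RB and from -0.66 to -0.22 for aPD1 + aGMCSF + aIL2RB tumors. These scores are descriptions and carry no test. The isotype tumors were unlike each other. Their sterol scores were 2.08, 1.50, 0.40, 0.13 and 0.32 in replicates 1 to 5, so the 2 tumors of the first set stood above the other 3. The aPD1 tumors parted in the same direction, with scores of -0.05, 0.77 and 0.19 in replicates 1 to 3 and -1.69, -1.15 and -0.33 in replicates 4 to 6. The groups overlapped in both scores, except that every isotype sterol score (0.13 and above) lay above every aPD1 + aGMCSF + aIL2RB score (-0.05 and below).

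**Figure D1:**
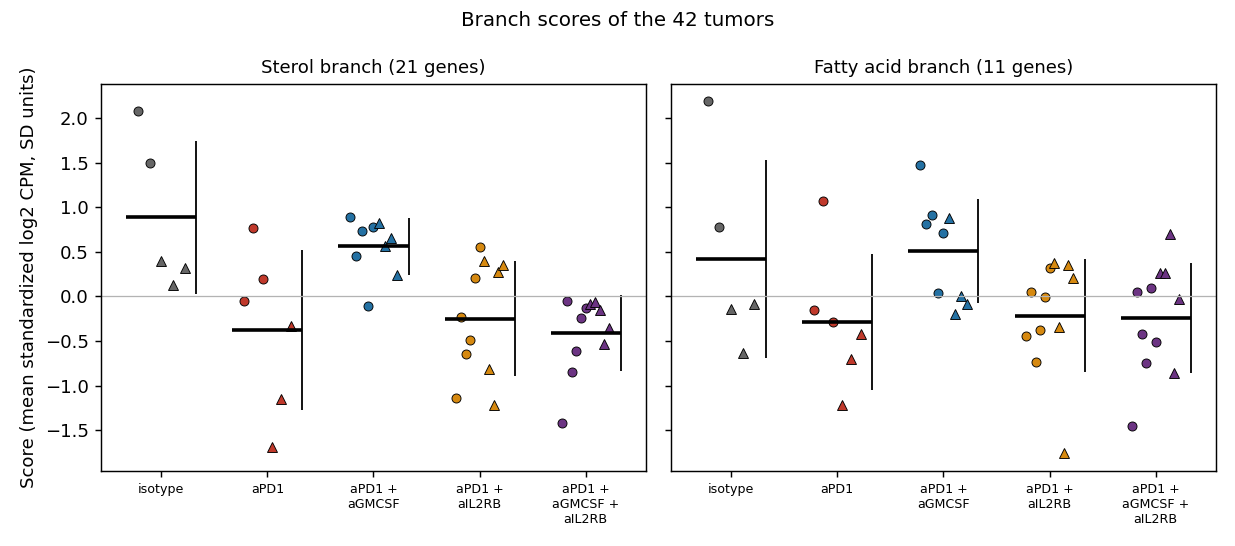
Sterol (left) and fatty acid (right) branch score of each tumor, in SD units, by group; circles are the first set of replicate numbers and triangles the second, horizontal bars are group means and vertical bars the SD. The mean sterol score is 0.89 in isotype and 0.56 in aPD1 + aGMCSF tumors and below 0 in the other groups, and the isotype mean rests mainly on replicates 1 and 2.

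The 7 genes from acetyl-CoA to farnesyl pyrophosphate hold the steps that feed all isoprenoids. After aPD1, 10 of the 32 members were lower than in isotype tumors and 0 higher by edgeR's quasi-likelihood test (Benjamini-Hochberg adjusted p under 0.05), where 2.54% of all genes tested were called lower and 6.17% higher. With only these groups in the fit, 1 of the 10 was called, Cyp51. Of the genes called, 70.8% were higher, or 39.6% when tumors were scaled by their totals alone. Of the 10, 4 belong to this early stretch, namely Hmgcs1, Mvd, Idi1 and Fdps. Fdps (ENSMUSG00000059743, chromosome 3, 89093588 to 89101959, minus strand of GRCm38), farnesyl pyrophosphate synthase, stood at 202, 187, 155, 153 and 136 CPM in isotype tumors. It ranged from 95.6 to 160 CPM in aPD1 tumors with a median of 122. The aPD1 tumors were mostly below the isotype tumors, with overlap at the top of the group. The fold change of Fdps was -0.42 ± 0.12 on the log2 scale (SE, adjusted p = 0.0217). With aGMCSF added to aPD1, Fdps ranged from 129 to 172 CPM (median 148), and in aPD1 + aGMCSF + aIL2RB tumors from 87.1 to 132 (median 114). All tumors of the last group lay under all isotype tumors, at -0.56 ± 0.10 (adjusted p = 0.000862), the smallest p of any member. In aPD1 + aIL2RB tumors Fdps ran from 97.8 to 156 CPM (median 120), at -0.45 ± 0.10 against isotype (adjusted p = 0.0115).

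Hmgcs1 makes HMG-CoA, the precursor of mevalonate. Its isotype values were 241, 219, 161, 160 and 165 CPM, against 90.2 to 199 CPM (median 135) in aPD1 and 151 to 210 (median 180) in aPD1 + aGMCSF tumors. The low values were those of aPD1 tumors, and all 3 groups overlapped. The change with aPD1 was -0.47 ± 0.15 (adjusted p = 0.0427), and that on adding aGMCSF was 0.41 ± 0.13 (adjusted p = 0.0347). Mvd, mevalonate diphosphate decarboxylase, moved alike at -0.55 (adjusted p = 0.0351) and 0.46 (adjusted p = 0.0335). Pmvk, phosphomevalonate kinase, differed in another place. Its isotype values were 27.7, 24.6, 17.3, 20.4 and 21.1 CPM, its aPD1 tumors ran from 16.9 to 21.2 (median 20.1), and its change with aPD1 was -0.18 ± 0.10 (adjusted p = 0.254). It was lowest in aPD1 + aGMCSF + aIL2RB tumors, at 13.8 to 18.9 CPM (median 17.6), which was -0.38 ± 0.08 against isotype (adjusted p = 0.00438) and -0.32 ± 0.07 against aPD1 + aGMCSF (adjusted p = 0.0118). Acat2, which condenses acetyl-CoA in the cytosol, and Idi1, isopentenyl diphosphate isomerase, were lower than isotype in both groups given aIL2RB, with changes of -0.45 to -0.52. With aPD1 + aIL2RB the Acat2 call (adjusted p = 0.0465) was lost in 10 of the 16 fits that left a tumor out. The calls of both genes were lost in the second set of replicate numbers, with adjusted p from 0.177 to 0.838. Mvk, mevalonate kinase, was called in none of the 10 pairs of groups.

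The promoters of the sterol genes are shown for their motifs. Across the 42 tumors the median correlation of a sterol gene with the mean of the others was 0.869, but Ebp (0.0102) and Tm7sf2 (0.0987) did not follow them. The 300 bases from 250 before to 50 after the start of a gene were taken from RefSeq on GRCm38.p6 for 17 sterol and 8 fatty acid members. The CCAAT letters of the NF-Y box, read on both strands, were in at least 1 such window of 16 of 17 sterol genes (94.1%), 5 of 8 fatty acid genes (62.5%) and 41.1% of 27025 genes. The sterol response element letters TCACNCCAC, also read on both strands, were in 1 of the 17 sterol genes (Hmgcs1, 5.88%), 0 of the 8 fatty acid genes and 1.44% of all genes. The E-box CACGTG, the same on both strands, was in 4 of 17 (23.5%), 0 of 8 and 8.09%. In the windows printed no match of 1 motif overlaps a match of another. Capitals mark NF-Y and sterol response element letters in the windows of Hmgcs1 (chr13:119690101-119690400, plus strand), Idi1 (chr13:8885356-8885655, plus strand), Cyp51 (chr5:4104648-4104947, minus strand), Acly (chr11:100527951-100528250, minus strand), a fatty acid gene with the box, and Fads2 (chr19:10101454-10101753, minus strand), 1 of the 3 fatty acid genes without it, each 5′ to 3′.
Hmgcs1: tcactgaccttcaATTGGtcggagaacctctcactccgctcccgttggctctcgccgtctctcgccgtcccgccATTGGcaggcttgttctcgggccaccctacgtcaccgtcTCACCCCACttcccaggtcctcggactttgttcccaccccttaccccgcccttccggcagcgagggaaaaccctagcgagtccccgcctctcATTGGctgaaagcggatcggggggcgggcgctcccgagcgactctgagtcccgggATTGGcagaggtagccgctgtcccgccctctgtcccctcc
Idi1: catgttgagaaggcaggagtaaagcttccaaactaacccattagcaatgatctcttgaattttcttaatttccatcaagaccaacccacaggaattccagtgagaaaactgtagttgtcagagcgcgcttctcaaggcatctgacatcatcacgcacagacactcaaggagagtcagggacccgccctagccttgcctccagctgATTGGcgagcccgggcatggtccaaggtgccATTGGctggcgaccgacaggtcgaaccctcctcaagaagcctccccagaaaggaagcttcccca
Cyp51: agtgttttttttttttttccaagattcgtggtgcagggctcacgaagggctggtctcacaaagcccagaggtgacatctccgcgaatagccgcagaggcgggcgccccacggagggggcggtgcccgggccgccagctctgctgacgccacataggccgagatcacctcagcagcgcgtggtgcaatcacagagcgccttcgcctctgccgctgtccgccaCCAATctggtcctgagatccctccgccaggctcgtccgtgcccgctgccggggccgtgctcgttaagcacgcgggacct
Acly: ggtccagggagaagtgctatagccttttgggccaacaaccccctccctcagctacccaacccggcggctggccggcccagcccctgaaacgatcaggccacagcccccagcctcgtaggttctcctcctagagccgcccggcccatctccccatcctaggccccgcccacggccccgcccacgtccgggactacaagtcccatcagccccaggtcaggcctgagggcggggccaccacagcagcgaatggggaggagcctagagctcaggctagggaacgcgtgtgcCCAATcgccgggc
Fads2: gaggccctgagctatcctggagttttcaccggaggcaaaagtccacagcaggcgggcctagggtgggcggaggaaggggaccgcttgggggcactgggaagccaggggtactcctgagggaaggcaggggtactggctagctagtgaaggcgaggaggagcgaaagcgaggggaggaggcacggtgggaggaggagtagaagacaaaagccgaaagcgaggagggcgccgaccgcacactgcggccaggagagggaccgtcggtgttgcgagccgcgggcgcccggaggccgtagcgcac
Hmgcs1 holds 4 NF-Y boxes and the only sterol response element letters of the set, and the Fads2 window holds neither. A match in these windows is a description and not a site shown to be bound.

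The 11 genes from squalene to cholesterol gave 4 of the members lower with aPD1, namely Fdft1, Sqle, Cyp51 and Msmo1. Cyp51 (ENSMUSG00000001467, chromosome 5, 4081145 to 4104746, minus strand), lanosterol demethylase, stood at 177, 154, 136, 138 and 142 CPM in isotype tumors. It ran from 77.0 to 132 CPM in aPD1 tumors with a median of 104. No aPD1 tumor reached the lowest isotype tumor, which was so of Cyp51 alone among the 32 members and of 1.13% of all genes. The change was -0.48 ± 0.11 (adjusted p = 0.00679), and it stayed under the threshold whichever tumor was left out, with adjusted p up to 0.0329. On adding aGMCSF, Cyp51 rose to 107 to 151 CPM (median 136), by 0.31 ± 0.10 (adjusted p = 0.0313). In aPD1 + aIL2RB tumors it ran from 87.1 to 136 CPM (median 114) and in aPD1 + aGMCSF + aIL2RB tumors from 86.5 to 136 (median 116). Both lay below isotype, at -0.38 ± 0.10 (adjusted p = 0.0253) and -0.37 ± 0.10 (adjusted p = 0.0174).

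Fdft1, squalene synthase, the first step that belongs to sterols alone, had isotype values of 67.9, 66.7, 54.2, 50.9 and 49.7 CPM. It ran from 32.8 to 52.8 CPM (median 45.4) in aPD1, 47.1 to 55.5 (median 51.8) in aPD1 + aGMCSF, 31.6 to 55.3 (median 43.9) in aPD1 + aIL2RB and 31.1 to 44.5 (median 43.1) in aPD1 + aGMCSF + aIL2RB tumors. Its changes against isotype were -0.40 ± 0.11 with aPD1 (adjusted p = 0.0197), -0.35 ± 0.10 with aPD1 + aIL2RB (adjusted p = 0.0376) and -0.47 ± 0.10 with all 3 antibodies (adjusted p = 0.00292). The difference of -0.30 between aPD1 + aGMCSF + aIL2RB and aPD1 + aGMCSF, for which Fdft1 had been named, is a description.

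Msmo1, a sterol C4-methyl oxidase, stood at 153, 153, 132, 130 and 128 CPM in isotype tumors. In aPD1 tumors it ran from 75.6 to 144 CPM (median 102) and in aPD1 + aGMCSF tumors from 106 to 140 (median 124). All aPD1 + aIL2RB tumors, 82.9 to 123 CPM (median 107), and all aPD1 + aGMCSF + aIL2RB tumors, 78.9 to 112 CPM (median 98.0), lay below all isotype tumors. The changes against isotype were -0.38 ± 0.11 with aPD1 (adjusted p = 0.0243), -0.43 ± 0.10 with aPD1 + aIL2RB (adjusted p = 0.00853) and -0.49 ± 0.10 with all 3 antibodies (adjusted p = 0.00183). The last of these stayed under the threshold in every fit run, those within each set of replicate numbers included, with adjusted p up to 0.0222. Sqle, squalene epoxidase, followed Cyp51 in direction in each of its 4 calls, from -0.38 with aPD1 to 0.32 on adding aGMCSF.

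Ebp, the sterol isomerase, was not called with aPD1. Its isotype values were 19.4, 24.2, 19.7, 22.4 and 21.02 CPM, and the aPD1 tumors, at 19.4 to 23.2 CPM (median 20.2), overlapped them, with a change of -0.04 ± 0.10 (adjusted p = 0.868). In aPD1 + aIL2RB tumors it ran from 13.8 to 20.7 CPM (median 17.9) and in aPD1 + aGMCSF + aIL2RB tumors from 15.4 to 21.2 (median 16.3). Ebp was lower than in aPD1 tumors in both groups, at -0.26 ± 0.08 (adjusted p = 0.0129) and -0.27 ± 0.08 (adjusted p = 0.0118). Both calls were lost when tumors were scaled by their totals alone (adjusted p = 0.0596 and 0.0647). The first was also lost within each set of replicate numbers (adjusted p = 0.0741 and 0.122), and the second in the first set (adjusted p = 0.588). Against isotype, Ebp was lower in both groups as Fdft1, Cyp51 and Msmo1 were, at -0.30 (adjusted p = 0.0422) and -0.30 (adjusted p = 0.0212), of which the first was lost in 9 of the 16 fits that left a tumor out and the second without isotype replicate 2 or 4. Across the 42 tumors its correlation with the mean of the other sterol genes was 0.0102, against a median of 0.869 over the 21 genes, which share library and depth. Tm7sf2, a sterol reductase and the least abundant sterol member, also stood apart at 0.0987. It was at 3.30, 3.93, 3.48, 3.46 and 2.06 CPM in isotype tumors and at 1.42 to 4.84 over the other groups, and it was called in no comparison. Lss, Nsdhl, Hsd17b7 and Dhcr7 were called in none either, and Sc5d, sterol desaturase, was called higher on adding aGMCSF (0.29, adjusted p = 0.019).

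**Figure D2:**
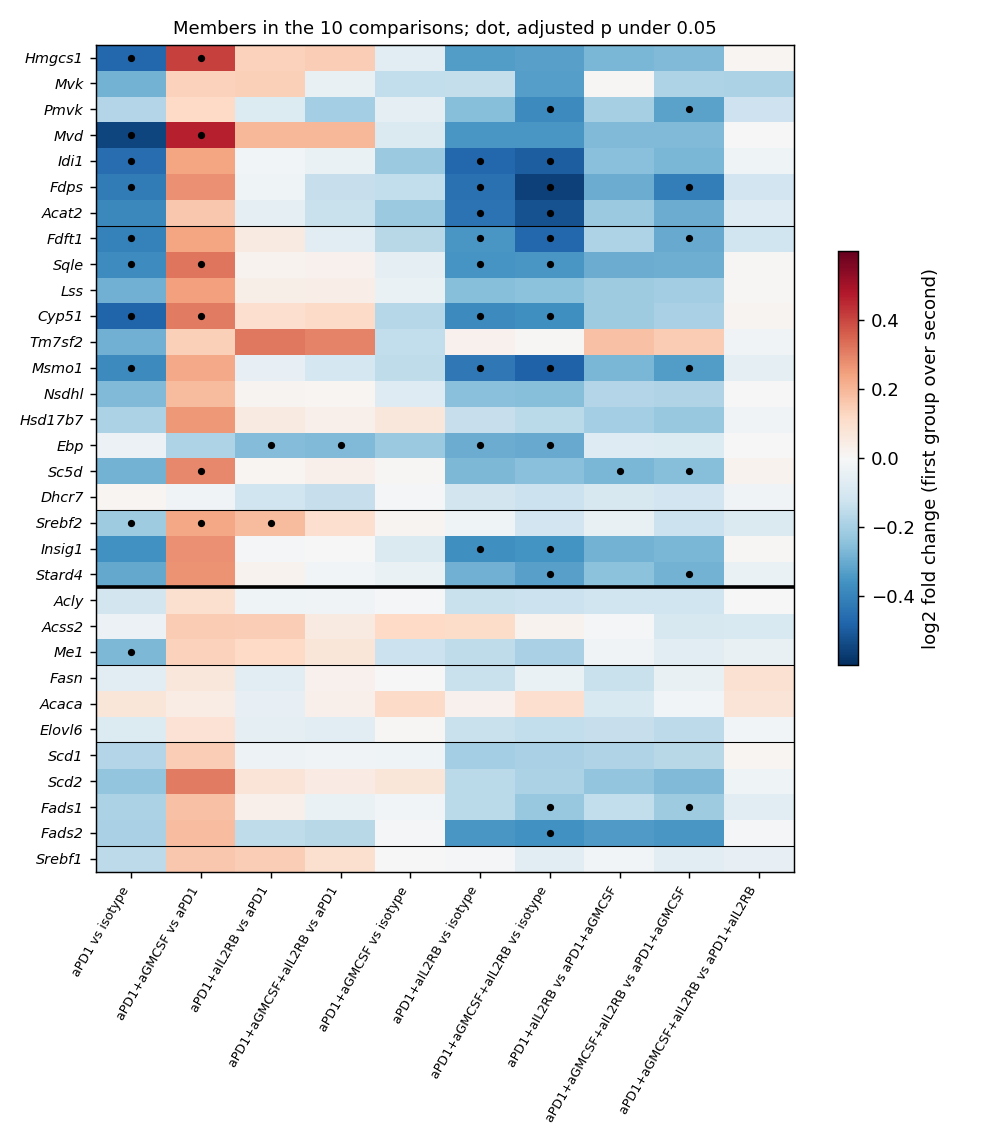
Log2 fold change of the 32 members (rows, grouped by step, the thick line parting the sterol from the fatty acid branch) in the 10 pairs of groups (columns, first group over second); dots mark an edgeR adjusted p under 0.05. The first column is blue and the second red over most sterol members, with 10 and 6 dots, and the fatty acid rows are paler, with 4 dots in all.

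Srebf2 (ENSMUSG00000022463, chromosome 15, 82147181 to 82205379, plus strand), which encodes SREBP-2 and had the highest mean of the sterol branch at 182 CPM, stood at 209, 207, 177, 182 and 173 CPM in isotype tumors. It ran from 138 to 190 CPM (median 164) in aPD1, 178 to 211 (median 194) in aPD1 + aGMCSF, 174 to 208 (median 185) in aPD1 + aIL2RB and 148 to 192 (median 178) in aPD1 + aGMCSF + aIL2RB tumors. The aPD1 tumors were the low group. Srebf2 fell by 0.22 ± 0.07 with aPD1 (adjusted p = 0.0335), and it was higher than in aPD1 tumors by 0.23 ± 0.06 with aGMCSF (adjusted p = 0.00586) and by 0.19 ± 0.06 with aIL2RB (adjusted p = 0.00914). Srebf2 was also the 1 member whose aGMCSF effect differed with and without aIL2RB, lower with it by -0.32 ± 0.07 (adjusted p = 0.00726, background 3.05%). Among all genes this contrast called 895 higher and 517 lower of 16932, so 1 call does not set the members apart from all genes. Insig1, the sterol-regulated brake on SREBP transport, was lower than isotype by -0.37 in aPD1 + aIL2RB (adjusted p = 0.0471, lost in 13 of the 16 fits that left a tumor out) and by -0.36 in aPD1 + aGMCSF + aIL2RB tumors (adjusted p = 0.0292). Stard4, a cholesterol carrier protein, was lower in the latter at -0.33 (adjusted p = 0.023).

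The fatty acid branch had the more abundant transcripts and the smaller changes. Per kb of merged exon, Scd2, a stearoyl-CoA desaturase, was the most abundant member at 212 CPM per kb, and Acss2, acetyl-CoA synthetase, was at 0.780 CPM per kb. With aPD1, 1 of 11 members was called lower, Me1, against 9 of 21 in the sterol branch. The median log2 fold change was -0.16 over the fatty acid branch, -0.31 over the sterol branch and -0.0023 over all genes, and whether the branches differ was not tested. Me1, the malic enzyme that supplies NADPH, stood at 139, 137, 109, 116 and 100 CPM in isotype and from 86.4 to 117 (median 97.6) in aPD1 tumors, a change of -0.27 ± 0.09 (adjusted p = 0.0408). Scd2 was at 1739, 1430, 1149, 947 and 954 CPM in isotype, 747 to 1408 (median 1032) in aPD1 and 1020 to 1665 (median 1361) in aPD1 + aGMCSF tumors. Isotype replicates 1 and 2 were the high tumors of its group, and the aPD1 range overlapped the isotype range, with a change of -0.24 ± 0.15 (adjusted p = 0.349).

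Fads1, the delta-5 desaturase of polyunsaturated fatty acids, stood at 295, 267, 258, 234 and 218 CPM in isotype tumors. It ran from 198 to 259 CPM (median 222) in aPD1, 228 to 272 (median 249) in aPD1 + aGMCSF, 190.5 to 261 (median 227) in aPD1 + aIL2RB and 181 to 242 (median 218) in aPD1 + aGMCSF + aIL2RB tumors. The groups overlapped, with the lowest tumor in the last. In that group it was lower than isotype by -0.23 ± 0.07 (adjusted p = 0.0263) and than aPD1 + aGMCSF by -0.21 ± 0.06 (adjusted p = 0.038). Fads2, the delta-6 desaturase, stood at 104, 88.0, 71.2, 69.0 and 62.4 CPM in isotype and 47.5 to 75.6 (median 65.0) in aPD1 + aGMCSF + aIL2RB tumors, at -0.36 ± 0.12 (adjusted p = 0.0434). The 2 highest values of these groups were isotype replicates 1 and 2. Acly, which splits citrate into acetyl-CoA, was at 376, 333, 288, 283 and 300 CPM in isotype and 274 to 340 (median 287) in aPD1 tumors, with a change of -0.11 ± 0.06 (adjusted p = 0.296). The groups overlapped, with aPD1 replicates 1 and 5 below the lowest isotype tumor. Srebf1 was at 72.7, 74.2, 55.3, 63.1 and 59.8 CPM in isotype and 54.9 to 62.8 (median 58.3) in aPD1 tumors, with a change of -0.16 ± 0.08 (adjusted p = 0.195). Acss2 was at 10.3, 9.31, 4.79, 7.05 and 6.68 CPM in isotype and 5.38 to 10.6 (median 7.09) in aPD1 tumors, which overlapped. Acly, Srebf1, Acss2, Scd1, Scd2, Fasn, Acaca and Elovl6 were called in none of the 10 pairs. Fasn, fatty acid synthase, had all its 42 tumors between 418 and 562 CPM.

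**Figure D3:**
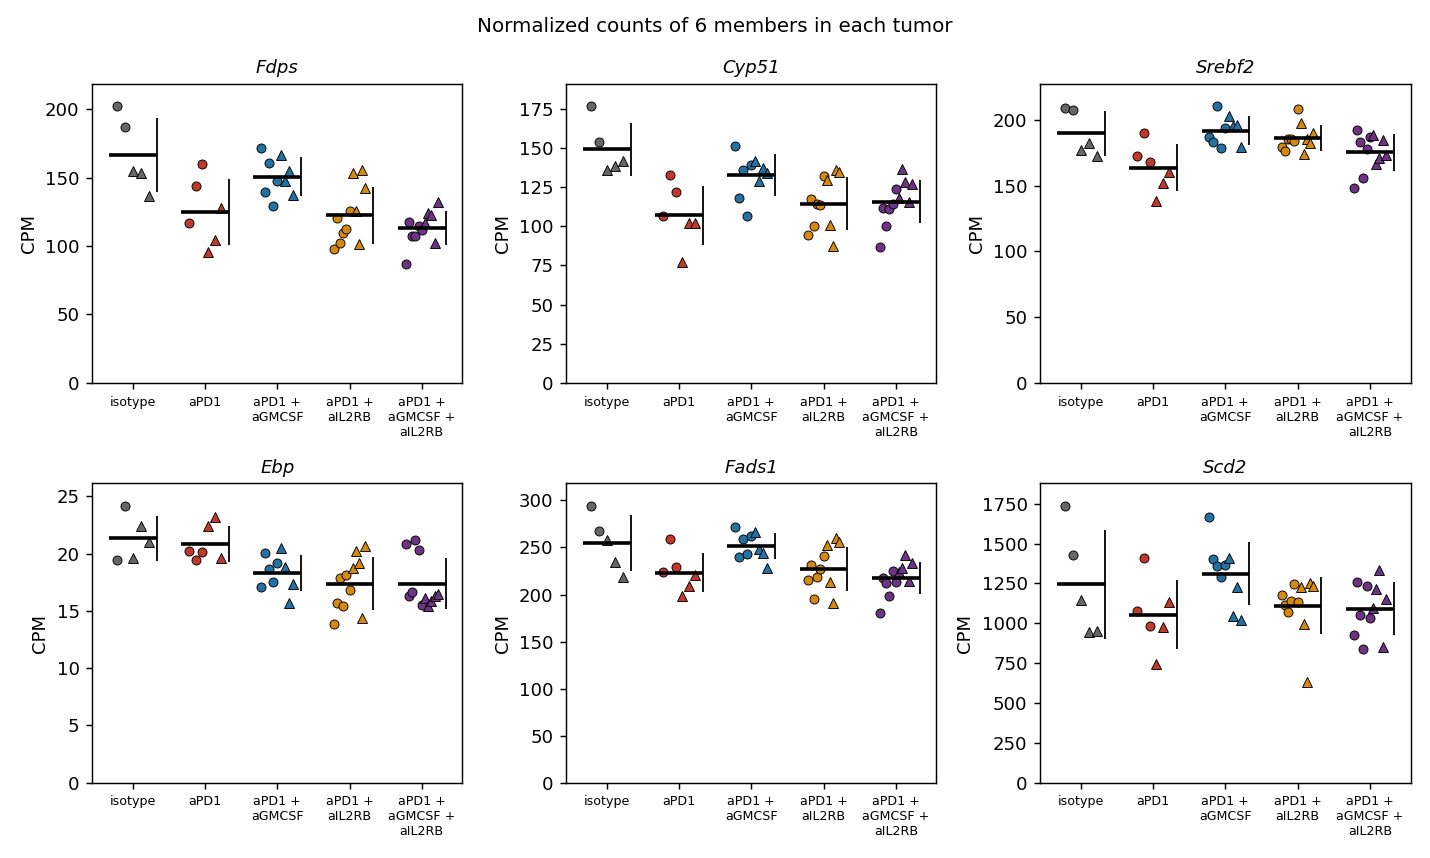
Normalized counts (CPM, linear axes from 0) of 6 members in each tumor by group; circles are the first set of replicate numbers and triangles the second, horizontal bars group means and vertical bars the SD. No aPD1 tumor reaches the isotype tumors in Cyp51, whereas Ebp overlaps between isotype and aPD1 tumors and Scd2 between all groups.

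Adding aGMCSF to aPD1 gave 6 members higher and 0 lower, where 4.77% of all genes were called higher and 8.75% lower. Of the genes called, 35.3% were higher, or 55.6% when scaled by totals alone. The 6 were Hmgcs1, Mvd, Sqle, Cyp51, Sc5d and Srebf2, all of the sterol branch. The branch medians were 0.24 and 0.15 for sterol and fatty acid genes. Comparisons with aPD1 + aGMCSF and with isotype share the aPD1 tumors, so a low aPD1 group enters both. Between aPD1 + aGMCSF and isotype tumors 0 members passed, as did 0 of all genes (0.0%) by edgeR, with 938 genes at an unadjusted p under 0.05.

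Adding aIL2RB to aPD1 gave few calls among the members. Srebf2 was called higher and Ebp lower, where 27.4% of all genes were called in either direction, and the sterol median was 0.02, which joins medians of opposite sign in the sets of replicate numbers, -0.12 in the first (3 members called, all lower) and 0.24 in the second (5 called, all higher). Among all genes, 1174 were called higher and 1539 lower of 17400 in the first set, and 1462 and 2221 of 16728 in the second. With both blockades Ebp alone was called, lower, against 13.1% of all genes higher and 14.3% lower. In these comparisons 47.3% and 47.8% of the genes called were higher, or 61.2% and 63.6% when scaled by totals alone. Against isotype tumors, 9 members were lower in aPD1 + aIL2RB tumors, where 1.51% of all genes were, and 13 in aPD1 + aGMCSF + aIL2RB tumors, where 4.51% were. With only isotype and aPD1 + aIL2RB tumors in the fit, 9 became 4, where 232 of 15821 genes were lower. The 9 are all sterol genes, and the 13 are 11 sterol genes with Fads1 and Fads2. Tumors of the groups did not overlap for 1 and 4 of the 32 members, against 0.532% and 0.797% of all genes. Against aPD1 + aGMCSF tumors, Sc5d was lower with aPD1 + aIL2RB (background 0.898%), and with all 3 antibodies 6 members were lower (background 1.15%) apart from Fdft1, whose value there is a description. Between the 2 groups given aIL2RB, 0 members and 1 gene in all (0.00591%) passed by edgeR, with 1212 genes at an unadjusted p under 0.05.

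The calls rested on few tumors. In aPD1 against isotype, 10 members fell to 1 without isotype replicate 1, isotype replicate 2 or aPD1 replicate 4, to 3 without aPD1 replicate 5, to 4 without aPD1 replicate 6 and to 6 without aPD1 replicate 1, and rose to 16 without aPD1 replicate 2. The 1 left without isotype replicate 1 or 2 was Cyp51. Genes called lower among all tested went from 430 to 289, 261 and 157 without isotype replicate 1, isotype replicate 2 and aPD1 replicate 4. They were 278, 274 and 314 without aPD1 replicates 5, 6 and 1, and 603 without aPD1 replicate 2. Of the aPD1 tumors, replicate 4 had the lowest sterol score and the highest scores for macrophage markers (2.87) and Ptprc (2.34), each the mean of log2 CPM standardized as for the branches. On adding aGMCSF to aPD1, 6 members became 1 without aPD1 replicate 4, 2 without aPD1 replicate 5 or 6 and 16 without aPD1 replicate 2. Genes called higher among all tested went from 807 to 386, 575, 598 and 1166 without aPD1 replicates 4, 5, 6 and 2. In aPD1 + aIL2RB against isotype, 9 became 3 and 1 without isotype replicates 1 and 2, 5 without isotype replicate 5 or aPD1 + aIL2RB replicate 2, 3 or 8, and 4 without aPD1 + aIL2RB replicate 1 or 4. Genes called lower among all tested went from 255 to 272 and 130 without isotype replicates 1 and 2. In the other fits named they ran from 148 to 253. In aPD1 + aGMCSF + aIL2RB against isotype, 13 became 6 without isotype replicate 1 or 2, where genes called lower among all tested went from 763 to 855 and 298. In aPD1 + aGMCSF + aIL2RB against aPD1 + aGMCSF, 7 with Fdft1 counted became 2 without aPD1 + aGMCSF replicate 6, 3 without its replicate 1, 3 or 8 or aPD1 + aGMCSF + aIL2RB replicate 3, 4 or 6, and 4 without aPD1 + aGMCSF replicate 2 or 7 or aPD1 + aGMCSF + aIL2RB replicate 2 or 11. Genes called lower among all tested went from 194 to 98 without aPD1 + aGMCSF replicate 6. In the other fits named they ran from 109 to 203. The Sc5d call between aPD1 + aIL2RB and aPD1 + aGMCSF was lost in 9 of the 20 fits that left a tumor out, and the Srebf2 call between aPD1 + aIL2RB and aPD1 without aPD1 replicate 4 (adjusted p = 0.0597). Leaving out aPD1 + aGMCSF + aIL2RB replicate 1, which kept its T and NK cell markers, gave 12 members against isotype in place of 13, and 5 against aPD1 + aGMCSF in place of 7.

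Within the sets of replicate numbers the sterol median kept its sign in the comparisons of aPD1 and both groups given aIL2RB with isotype and on adding aGMCSF to aPD1, and its size differed in all of these but the first. The median for aPD1 against isotype was -0.36 in the first set (3 against 2 tumors, 0 members called, where 2 genes in all were) and -0.36 in the second (3 against 3, 9 members called). In that second set, 1560 of 16728 genes were called higher and 617 lower. On adding aGMCSF the sterol median was 0.07 in the first set (0 members called) and 0.38 in the second (13 called). Among all genes, 15 were called higher and 12 lower of 17400 in the first set, and 884 and 1852 of 16728 in the second. Against isotype the sterol median was -0.49 and -0.13 for aPD1 + aIL2RB (14 and 0 called) and -0.61 and -0.12 for aPD1 + aGMCSF + aIL2RB (16 and 2 called). Among all genes, aPD1 + aIL2RB gave 188 higher and 221 lower of 17400 in the first set, and 146 and 131 of 16728 in the second. For aPD1 + aGMCSF + aIL2RB these were 164 and 174 in the first set, and 822 and 1090 in the second. The fatty acid median of the last comparison was -0.43 in the first set and 0.03 in the second. In aPD1 + aGMCSF + aIL2RB against aPD1 the sterol median likewise turned from -0.20 in the first set (4 members called, all lower) to 0.22 in the second (8 called, 7 higher), and in aPD1 + aGMCSF against isotype from -0.31 to 0.06. Among all genes, aPD1 + aGMCSF + aIL2RB against aPD1 gave 507 higher and 427 lower of 17400 in the first set. In the second it gave 2158 and 2791 of 16728.

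**Figure D4:**
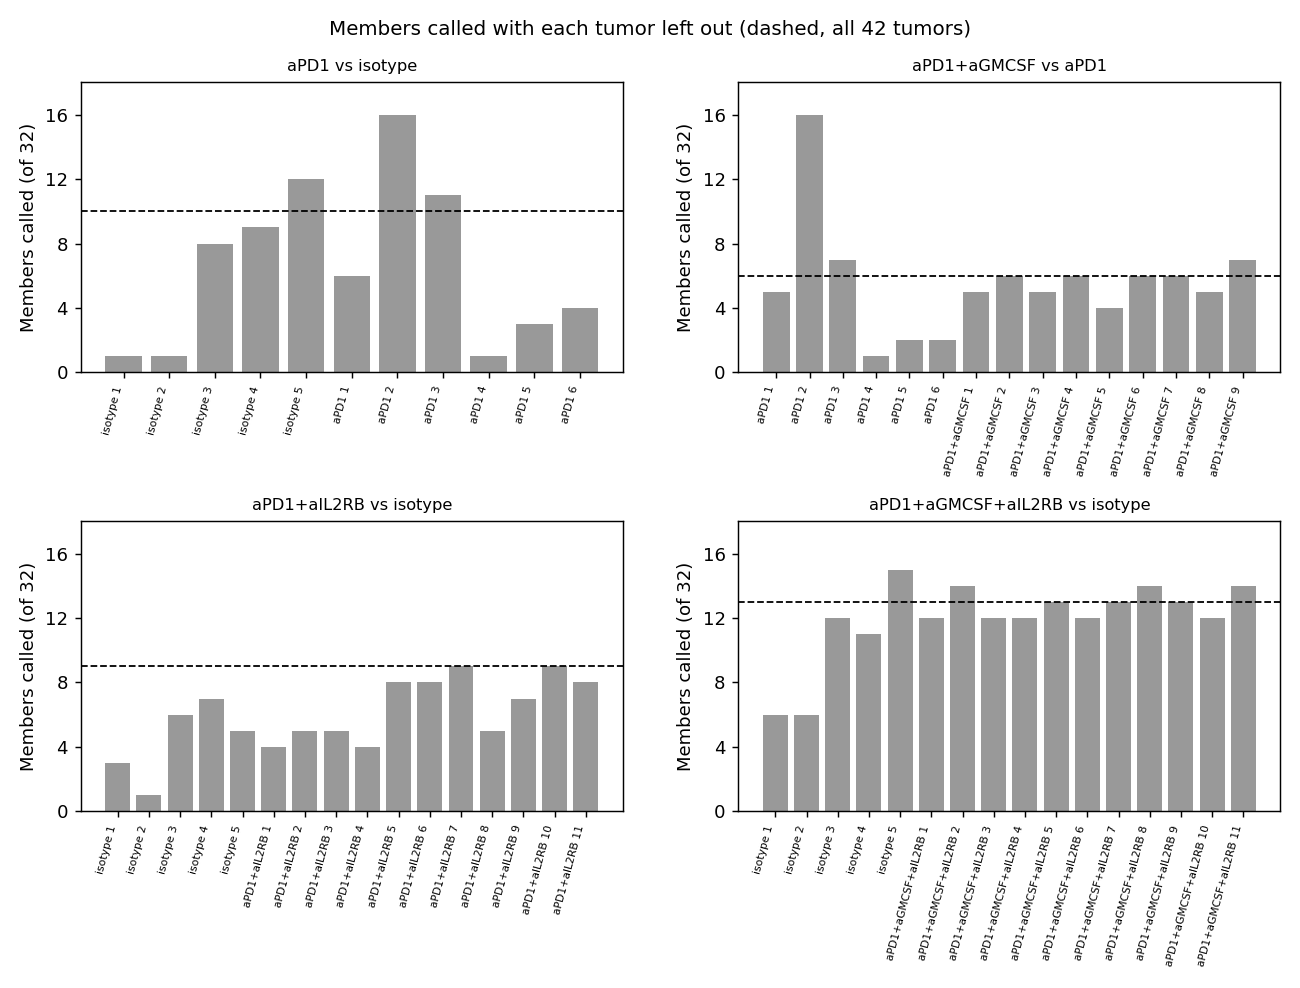
Number of the 32 members called (vertical axis) when each tumor is left out in turn (bars, horizontal axis), in 4 comparisons; the dashed line is the number with all 42 tumors. The bars drop to 1 without isotype 1, isotype 2 or aPD1 4 in the first panel and stay at 6 or more in the last.

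The branches rose and fell together from tumor to tumor. Over the 42 tumors the sterol and fatty acid scores had Pearson's r = 0.855 and Spearman's rho = 0.807, with r = 0.804 without the 2 tumors farthest from the median sterol score. After each group's mean was taken off, r was 0.842, so tumors of the same group differed along the same line. It was 0.915 in the first set and 0.744 in the second. The scores share library and scaling, and the relation is a description. Fads1 followed the sterol genes about as closely as its own branch (r = 0.895 and 0.853), and Acaca followed neither closely (0.291 and 0.557). Lss, lanosterol synthase, was the sterol gene closest to the fatty acid branch (0.895).

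**Figure D5:**
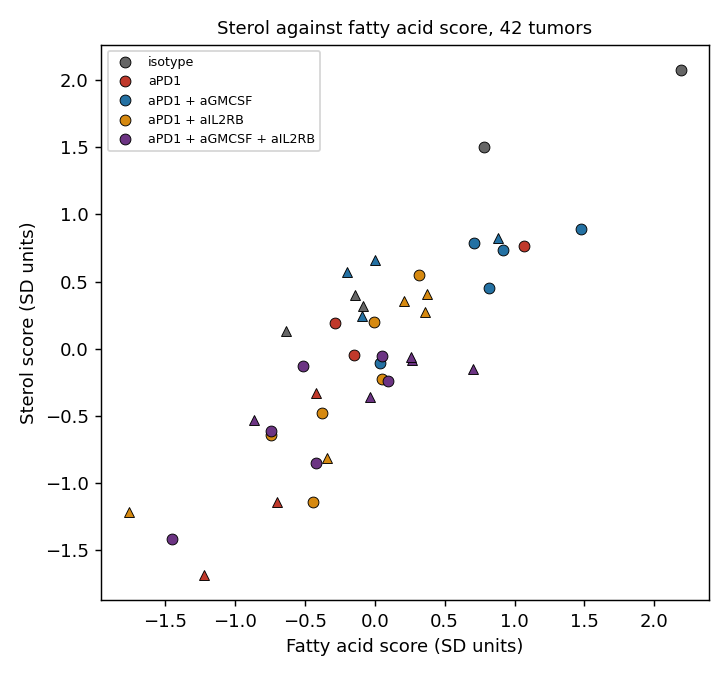
Sterol score against fatty acid score (both in SD units) of each of the 42 tumors, coloured by group; circles are the first set of replicate numbers and triangles the second. The points follow 1 line (r = 0.855), with isotype replicate 1 at the upper right and aPD1 replicate 4 among the lowest.

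Other genes of these pathways, from lists drawn up with earlier results known, were counted in the same fits. Of 14 other sterol genes, 3 were lower and 2 higher with aPD1, where 2.54% of all genes were called lower and 6.17% higher. Npc2, which carries cholesterol out of lysosomes, rose by 0.58 ± 0.14 with aPD1 (adjusted p = 0.00757). Of 8 LXR and cholesterol efflux genes, 4 rose with aPD1 (background 6.17%) and the same 4 fell on adding aGMCSF (background 8.75%). These 4 were also lower than in aPD1 tumors with aPD1 + aIL2RB (list median -0.54), and all but Abca1 with all 3 antibodies (-0.45), where 2449 and 2419 of 16932 genes were lower. The 4 are Nr1h3, which encodes LXR-alpha, the exporters Abca1 and Abcg1, and the phospholipid transfer protein Pltp. Abcg1 rose from a mean of 18.5 to 58.9 CPM with aPD1, by 1.67 ± 0.31 (adjusted p = 0.00105). Of 13 other fatty acid genes tested, 0 passed with aPD1 and 3 were lower in aPD1 + aGMCSF + aIL2RB than in isotype tumors (background 4.51%), Slc25a1, the citrate carrier, among them (-0.34 ± 0.08, adjusted p = 0.00718). Of 9 fatty acid oxidation genes, 1 rose (background 6.17%) and 2 fell (background 2.54%) with aPD1, where Acadl fell by 0.23 ± 0.07 (adjusted p = 0.0294).

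Markers of other cells moved with the same groups, and in bulk tumors fewer cells of a type and less RNA per cell cannot be told apart. The T and NK cell markers had a summed level of 90.6 to 215 CPM in aPD1 tumors, above all isotype tumors, and all 8 were positive with aPD1 (median 1.07), but 0 of 8 were called. Shisal2b, which the study used to mark MC38 cells, had a mean of 20.9 CPM in isotype and 15.1 in aPD1 tumors (-0.47, adjusted p = 0.15) and was called higher than aPD1 in aPD1 + aIL2RB tumors, at 24.6 CPM (0.70 ± 0.18, adjusted p = 0.00236). Of all genes, 6.17% were called higher with aPD1 and 8.75% lower on adding aGMCSF. All 7 macrophage markers rose with aPD1 and all 7 fell on adding aGMCSF. Their summed level was 2051 to 2438 CPM in isotype, 2403 to 4598 in aPD1, 1788 to 2150 in aPD1 + aGMCSF, 1703 to 2231 in aPD1 + aIL2RB and 1444 to 2913 in aPD1 + aGMCSF + aIL2RB tumors, and 0 of the 7 markers were at 0 in any tumor. The leukocyte marker Ptprc rose by 0.97 with aPD1 (adjusted p = 0.013), and all 6 skeletal muscle genes were called higher too (background 6.17%). The muscle score was -0.961 and -1.65 in aPD1 replicates 2 and 4 and 0.718 to 2.04 in the other aPD1 tumors. Of 12 adipocyte markers, which mark another lipogenic cell, 0 were called with aPD1, and Lpl, Lipe and Pparg were lower in each of the other antibody groups than in aPD1 tumors, with all 12 negative. Lpl was also lower than isotype in both groups given aIL2RB. Fabp4, Lpl, Lipe and Pparg, which other cells express too, had medians of 20.03, 11.6, 8.09 and 2.05 CPM and were at 0 in no tumor, whereas the defining markers Adipoq, Plin1 and Lep had medians of 0.368, 0.362 and 0.136 CPM and were at 0 in 9, 8 and 13 of 42 tumors. Of 8 skin and sebaceous gland genes only 4 could be tested, and Krt1, at 0 in 34 of 42 tumors, was higher with aPD1. Of 6 proliferation genes 0 were called with aPD1, and 1 and 3 were lower than isotype in aPD1 + aIL2RB and aPD1 + aGMCSF + aIL2RB tumors (background 1.51% and 4.51%). Fibroblast markers gave 3 higher and 1 lower with aPD1, and endothelial markers 2 higher of 3 (background 6.17% higher and 2.54% lower). The share of counts in genes that hold ribosomal RNA sequence, mitochondrial ones included, was 1.72% to 8.55% (median 6.71%) in isotype and 4.57% to 17.9% (median 9.00%) in aPD1 tumors, with aPD1 replicate 5 the highest. Over the 42 tumors the sterol score had r = 0.58 with the proliferation score, -0.491 with the endothelial, -0.482 with the fibroblast, -0.278 with the macrophage and -0.249 with the adipocyte score. Spearman's rho was 0.565, -0.475, -0.496, 0.0182 and -0.106. Without the 2 farthest tumors r was 0.572, -0.43, -0.466, -0.121 and -0.0494. After group means were taken off r was 0.324, -0.173, -0.276, -0.44 and -0.439, and rho was 0.127, -0.135, -0.164, -0.226 and -0.32. For the T and NK cell, LXR and cholesterol efflux, skin and muscle scores r was 0.132, -0.386, 0.236 and -0.0258. After group means were taken off it was -0.393, -0.347, 0.436 and 0.241. All these scores share library and scaling, and the values are descriptions. The part of these cell types and of the ribosomal share in the members' changes was not tested.

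The deposited counts of some members were estimates that were not whole numbers, to a tolerance of 0.01, in many tumors. This was so of Fdps in 37 of the 42 tumors, of Fdft1, Idi1 and Tm7sf2 in 34, Acat2 in 39, Scd1 and Scd2 in 33, Acaca in 32, Dhcr7 in 31 and Cyp51 in 13, so the levels of these genes are less certain than those of Sqle, Hmgcs1, Srebf2, Ebp and Fads1, which were whole in all tumors. Idi1 summed to whole numbers with Gm13502 in 34 tumors and Cyp51 with Akap9 in 13, and for the others no such partner was found.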

How the data were processed

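Bulk poly(A) RNA was sequenced from 42 MC38 tumors. The authors aligned reads to the transcriptomes of the Collaborative Cross founder strains (mm10/GRCm38) with Bowtie 1.2.3 and deposited expected counts per gene from gbrs, summed over haplotypes and not normalized, 15.2% of them not whole numbers. Here the expected counts were rounded. Of 26811 identifiers, 26629 had a symbol. Genes were kept by filterByExpr (minimum count 10, minimum total 15) and tested in R 4.3.3 with edgeR 4.0.16 (TMM, quasi-likelihood, all 42 tumors in 1 model, 10 pairs of groups, Benjamini-Hochberg adjustment over all genes within each pair, threshold 0.05). The study's tool, DESeq2 (1.42.0 here), was an alternative. The test was tried on simulated counts for 16932 genes, where it recovered 188 of 200 changed by a log2 of 1. CPM used a prior count of 2 on the log2 scale. SE is the log2 fold change divided by the root of F.

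Every member was accounted for. Values by tumor were given for the 6 members of each branch with the smallest adjusted p, those with the highest and lowest mean, and Fdft1, and from each other list for the 3 genes with the smallest adjusted p where they touched a result. Other genes named, such as Hmgcs1 and Ebp, were chosen after their values were seen. The members, the lists and the sets of replicate numbers were chosen with earlier results of these data known. The values of 1 of the other sterol genes are not reported here. Coordinates and exon lengths came from GENCODE vM21, promoters from RefSeq.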

Additional observations from a re-analysis of the deposited data

Results flagged for a closer look

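Some values stood far from the rest of their group, with a gap to the nearest tumor above Dixon's 95% critical value. Such gaps are found by chance in about 1 of 20 groups, and 102 groups of 4 to 10 tumors were looked at. Sqle in aPD1 + aGMCSF replicate 4 was at 95.7 CPM, against 120 to 135 CPM in the other tumors of the group. Tm7sf2 in isotype replicate 5 was at 2.06 CPM, against 3.30 to 3.93 CPM, a gene with few counts. In aPD1 replicate 2, Acly was at 340 CPM, against 274 to 291 CPM in the other aPD1 tumors, and Acaca at 299 CPM, against 236 to 243 CPM. The same tumor had the highest fatty acid score of its group, 1.07, and leaving it out raised the members called in aPD1 against isotype from 10 to 16. Genes called lower among all tested rose from 430 to 603 in the same fit.

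The effect of aGMCSF on Srebf2 differed with and without aIL2RB. With aIL2RB it was lower by -0.32 ± 0.07 on the log2 scale than without (edgeR's interaction contrast, adjusted p = 0.00726). Srebf2 alone of the 32 members passed, where 3.05% of all genes were called lower. In all, 895 genes were called higher and 517 lower of 16932, so 1 call does not set the members apart from all genes. This contrast was chosen after seeing the data. Within the first set of replicate numbers it was -0.21 (adjusted p = 0.303), and within the second -0.42 (adjusted p = 0.00393).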

How the results depend on the processing

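Among the member calls of the text, 0 changed direction under any setting. With each tumor left out in turn, the members called ran from 1 to 16 in aPD1 vs isotype and in aPD1 + aGMCSF vs aPD1, 1 to 2 in both groups given aIL2RB vs aPD1, 1 to 9 in aPD1 + aIL2RB vs isotype, 6 to 15 in aPD1 + aGMCSF + aIL2RB vs isotype, 0 to 3 in aPD1 + aIL2RB vs aPD1 + aGMCSF and 2 to 6 in aPD1 + aGMCSF + aIL2RB vs aPD1 + aGMCSF. They stayed at 0 in aPD1 + aGMCSF vs isotype and between the groups given aIL2RB. With only the groups compared in the fit, 10 became 1 in aPD1 vs isotype, 6 became 10 in aPD1 + aGMCSF vs aPD1, 1 became 2 in aPD1 + aGMCSF + aIL2RB vs aPD1, 9 became 4 in aPD1 + aIL2RB vs isotype, and against aPD1 + aGMCSF 1 became 6 with aPD1 + aIL2RB and 7, Fdft1 counted, became 13 with all antibodies. Among all genes, those lower went from 430 to 184 in aPD1 vs isotype, and those higher from 807 to 932 in aPD1 + aGMCSF vs aPD1. Lower genes went from 2419 to 2086 with all antibodies vs aPD1 and from 255 to 232 in aPD1 + aIL2RB vs isotype. Against aPD1 + aGMCSF they went from 152 to 291 and from 194 to 205. With library size only, 6 became 12 in aPD1 + aGMCSF vs aPD1, and against aPD1 + aGMCSF 1 became 0 and 7 became 2. Among all genes, those higher went from 807 to 1402 in the first of these. Those lower went from 152 to 124 and from 194 to 111 in the others. With a filter of a total of at least 5 counts, 7 became 3 in all antibodies vs aPD1 + aGMCSF. There 124 of 26110 genes were lower, in place of 194 of 16932. In the first set alone the counts were 0, 0, 4, 14, 2 and 4, and in the second 9, 13, 8, 0, 0 and 2, for aPD1 vs isotype, aPD1 + aGMCSF vs aPD1, all antibodies vs aPD1, aPD1 + aIL2RB vs isotype, and both groups given aIL2RB vs aPD1 + aGMCSF. Among all genes, aPD1 + aIL2RB vs aPD1 + aGMCSF gave 154 higher and 147 lower of 17400 in the first set. In the second it gave 13 and 49 of 16728. For all antibodies vs aPD1 + aGMCSF these were 18 and 28, and 461 and 824. In the second set aPD1 + aIL2RB vs aPD1 gave 5 in place of 2, and all antibodies vs isotype 2 in place of 13. DESeq2 gave 5 in place of 1 in aPD1 + aIL2RB vs aPD1 + aGMCSF, with 230 genes lower among all tested in place of 152. DESeq2, its size factors, at least 10 counts in every tumor and the set as a term gave 2 in place of 1 in all antibodies vs aPD1. Genes lower among all tested ran from 2183 to 2648 in those fits, in place of 2419. The replicate block gave 13, 7, 3, 2, 12, 16, 5 and 10 members where the text has 10, 6, 2, 1, 9, 13, 1 and 7. Among all genes, those called lower went from 430 to 601 in aPD1 vs isotype. Against isotype they went from 255 to 1185 with aPD1 + aIL2RB and from 763 to 2030 with all antibodies. Against aPD1 + aGMCSF they went from 152 to 185 and from 194 to 497, and against aPD1 from 2449 to 2574 and from 2419 to 2856. Those called higher in aPD1 + aGMCSF vs aPD1 went from 807 to 834. Tumors of different groups with the same number correlated by a median of 0.0349, so the numbers mark no pairing. The causes were not tested. With another prior count, summary, scaling or filter, with set means taken off or with a tumor left out, no score difference moved by more than the SD within groups (0.61 sterol, 0.705 fatty acid). This SD was larger than several of the differences, so the bound does not show that they held. The fatty acid difference of aPD1 vs isotype went from -0.708 to -0.267 with a tumor left out. That of aPD1 + aGMCSF vs isotype turned from 0.0822 to -0.182. The sets alone differed by more than the SD. The mean sterol scores of all antibodies and isotype were -0.55 and 1.79 in the first set and -0.24 and 0.29 in the second, and the fatty acid scores -0.50 and 1.49, and 0.07 and -0.28. Of 50 calls on members (Fdft1 and the Srebf2 interaction counted), 12 were lost with library size only, 29 in the first set alone and 31 in the second.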
